A study of Mus musculus with 4 samples.

Results

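The clustered protocadherins were described across the cell classes of the embryonic mouse neocortex and between embryos with and without induced reprogramming factors. Members were all genes of the deposited count matrices whose symbol begins with Pcdha, Pcdhb, Pcdhga, Pcdhgb or Pcdhgc followed by an isoform number or letter. The rule found 57 of 32285 listed genes, 14 in the alpha, 22 in the beta and 21 in the gamma cluster. Pcdhb1 had 0 UMIs (unique molecular identifiers, each standing for 1 captured RNA molecule), so the 56 members with at least 20 UMIs are described. Kept cells held 39531 UMIs of these genes, 5217 from alpha, 11264 from beta and 23050 from gamma.

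Single cells came from the rostral neocortex of both hemispheres at E15.5 (embryonic days are written with E) and were captured with 10x Genomics 3′ v3.1 chemistry, in 2 i4F-Nes libraries and 2 CTR libraries. i4F-Nes embryos had the genotype Nestin-Cre;i4F;ROSA-STOP-rtTA, in which Cre from the Nestin promoter of neural progenitors lets the transactivator rtTA switch on i4F, an inducible cassette of the Yamanaka factors Oct4, Sox2, Klf4 and Myc. CTR embryos carried i4F and ROSA-STOP-rtTA but no Cre. Both groups received doxycycline at 0.2 mg/ml through the drinking water of the pregnant females over 4 days that began at E10.5 and ended at E14.5. The number of embryos behind a library is not given in the sources used here, so p-values measure the spread between libraries.

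Clustered protocadherins are cell-surface adhesion proteins of neurons, encoded in tandem arrays. In the alpha and gamma clusters each member is a variable first exon with its own promoter, spliced to constant exons shared by the whole cluster, whereas each beta gene is a single coding exon without a constant part. A neuron is known to use only some of the promoters, chosen with the help of CTCF, cohesin and DNA methylation, and the resulting mixture of homophilic proteins lets its branches recognise and avoid each other. The C-type isoforms (Pcdhac1, Pcdhac2, Pcdhgc3, Pcdhgc4 and Pcdhgc5) lie at the ends of the alpha and gamma arrays and are known for broader use.

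All 57 members matched the GENCODE M21 annotation by gene ID with the same symbol, and all lie on the plus strand of chromosome 18 (GRCm38, the assembly behind mm10). The alpha cluster spans 36930184 to 37187661, the beta cluster 37264938 to 37524479 and the gamma cluster 37661793 to 37841873. The annotated 3′ end, where a 3′ library samples a transcript, is shared with other genes for 14 of 14 alpha members and 21 of 21 gamma members, but for 1 of 22 beta members (Pcdhb21). The share of a gene's exonic bases that no other gene covers was 7.0% to 51.4% in alpha (median 46.4%), 0% to 68.5% in gamma (median 54.8%, with Pcdhga10 at 0%), and 36.5% to 100% in beta (median 100%). How reads on shared exons or in introns were counted is not given in the sources used here. The alpha and gamma sums and their split among members are therefore uncertain, while the beta genes, Pcdhb21 apart, have ends of their own. Pcdhga10, without unique exonic bases, still had 874 UMIs in kept cells. A pair of alpha entries are both called Pcdha11. The first along the locus (ENSMUSG00000007440) had 232 UMIs in kept cells and the second (ENSMUSG00000102206) had 1803.

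The matrices held 35255 barcodes and 458145772 UMIs, and 26641 cells with 385509235 UMIs were kept, 7498 and 6407 from i4F-Nes and 6046 and 6690 from CTR. Library pairs shared 20 to 31 barcodes. Replicate 2 of each group was shallower, with medians of 11320 UMIs per i4F-Nes cell and 11620 per CTR cell, than replicate 1, with 15162 and 15132. CTR replicate 1 stood apart in sex-linked RNA, with Xist at 0.0103 CPM (UMIs of a gene per 1e6 UMIs of the class), against 848 to 1158 CPM in the other 3 libraries. The Y-linked Ddx3y was at 41.2 CPM in CTR replicate 1 and at 0.0489 to 0.871 CPM in the other 3. Sex thus differed within CTR and in part between i4F-Nes and CTR, and it was not part of any fit. Cells were assigned to classes by counting detected marker genes, none of them a protocadherin: 2095 radial glia-like, 3785 intermediate progenitor-like, 14111 excitatory neuron-like and 713 interneuron-like cells, with 5526 of upper-layer and 3802 of deep-layer type. A pair of reprogrammed classes were gated on genes such as Cytl1, Cd109 and Nanog (675 cells, all i4F-Nes) and on Krt8, Crabp2 and the Ebf genes (371 i4F-Nes and 2 CTR cells, the CTR cells left out of the levels below). The 12 radial glia markers summed to 12630 CPM in radial glia-like cells and 205.6 CPM in excitatory neuron-like cells, and the 12 interneuron markers to 4350 CPM in interneuron-like cells and 17.2 CPM in excitatory neuron-like cells. A total of 4457 kept cells met no gate.

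**Figure D1:**
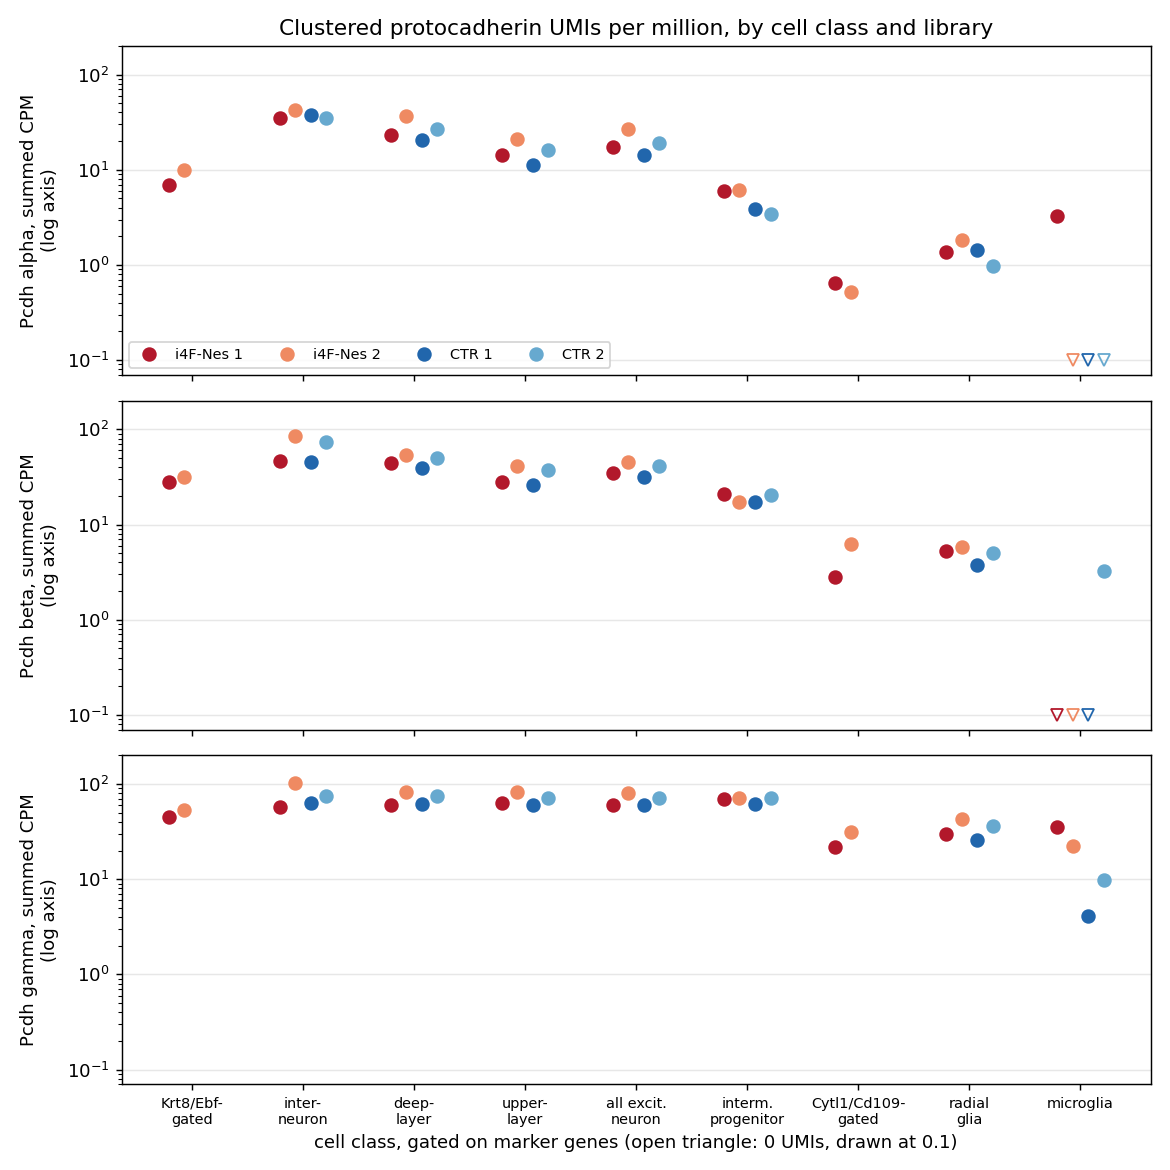
Summed level of each protocadherin cluster (CPM, log axis) in each cell class, 1 point per library, with i4F-Nes libraries in red and orange and CTR libraries in dark and light blue, and open triangles for 0 UMIs. In all 4 libraries alpha and beta were higher in excitatory neuron-like than in radial glia-like cells, and the gap was smallest for gamma; reprogrammed classes have i4F-Nes points only.

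The clusters differed in how far their level in neurons exceeded that in progenitors. Alpha summed to 17.5 and 26.6 CPM in excitatory neuron-like cells of the i4F-Nes libraries and 14.4 and 19.3 CPM in those of the CTR libraries, whereas radial glia-like cells had 1.37 and 1.84 CPM in i4F-Nes and 1.42 and 0.970 CPM in CTR. Within libraries the neuron level was 10.1 to 19.8 times the radial glia level. Beta reached 34.5 and 45.8 CPM in i4F-Nes and 31.7 and 41.5 CPM in CTR neuron-like cells, against 5.30 and 5.84 CPM in i4F-Nes and 3.79 and 5.05 CPM in CTR radial glia-like cells, 6.51 to 8.36 times as much. Gamma was already present in radial glia-like cells, at 29.6 and 43.2 CPM in i4F-Nes and 25.6 and 36.1 CPM in CTR, and its neuron level of 59.7 to 80.4 CPM was 1.86 to 2.34 times that.

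Intermediate progenitor-like cells, the dividing daughters of radial glia, lay between these classes for alpha and beta but not for gamma. The class also carried neuronal RNA, with Neurod6 at 515 to 736 CPM. Radial glia-like cells had Neurod6 at 18.05 to 35.3 CPM and excitatory neuron-like cells at 902 to 1106 CPM. The part of neuronal RNA in the levels of this class was not tested. Alpha was at 6.05 and 6.18 CPM in i4F-Nes and 3.86 and 3.39 CPM in CTR intermediate progenitor-like cells, 2.72 to 4.43 times the radial glia level of the same library. Beta was at 17.4 to 20.9 CPM, 2.97 to 4.61 times the radial glia level. Gamma was at 61.7 to 72.2 CPM, and its ratio of excitatory neuron-like over intermediate progenitor-like cells was 0.871 to 1.11. The gamma level of radial glia-like cells was thus below that of both other classes in each of the 4 libraries, and the last pair of levels overlapped.

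Shares of cells with a UMI followed the same order of classes. With each cell thinned to 2000 UMIs, alpha was found in 2.67% to 4.65% of excitatory neuron-like cells across libraries and in 0% to 0.391% of radial glia-like cells, beta in 6.12% to 7.62% and 0.482% to 1.43%, and gamma in 10.8% to 14.49% and 4.46% to 9.16%. Without thinning the neuron shares were 18.5% to 25.8%, 32.7% to 35.2% and 54.6% to 56.3%, and the radial glia shares 1.43% to 2.88%, 5.16% to 7.19% and 33.6% to 45.6%. Microglia, which are not of neural origin, had an alpha UMI in 0 of 93 thinned cells, which allows a share of up to 3.23%, and 1 alpha UMI in all 138 cells (0.965 CPM). Endothelial cells had 0 alpha UMIs in 51 cells, and these counts are too small to set a background. The neuron-to-glia ratios of alpha rest on 49 UMIs in radial glia-like cells (1.41 CPM). Median depth was 14279 UMIs per excitatory neuron-like cell, 15926 per radial glia-like cell and 3222 per microglial cell.

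Member by member, every described gene had a higher pooled level in excitatory neuron-like than in radial glia-like cells, 14 of 14 alpha, 21 of 21 beta and 21 of 21 gamma members. The median ratio of pooled CPM was 16.9 for alpha, 7.33 for beta and 2.01 for gamma, taking the 3 alpha and 2 beta members with 0 UMIs in radial glia-like cells at a lower bound of 3 counts over the group. In edgeR's quasi-likelihood test with the library as a block, 45 members passed an adjusted p of 0.05, all higher in neurons (9 alpha, 17 beta and 19 gamma), where 41.5% of all 15268 tested genes were called higher and 78.8% in either direction. A total of 47 members passed the low-count filter, many of them only through their counts in neurons. The median log2 fold change over all tested genes was 0.07. Pcdhgb2 (0.74 ± 0.41 SE on the log2 scale, adjusted p = 0.127) and Pcdhga10 (0.46 ± 0.26, adjusted p = 0.126) did not pass in this edgeR test.

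**Figure D2:**
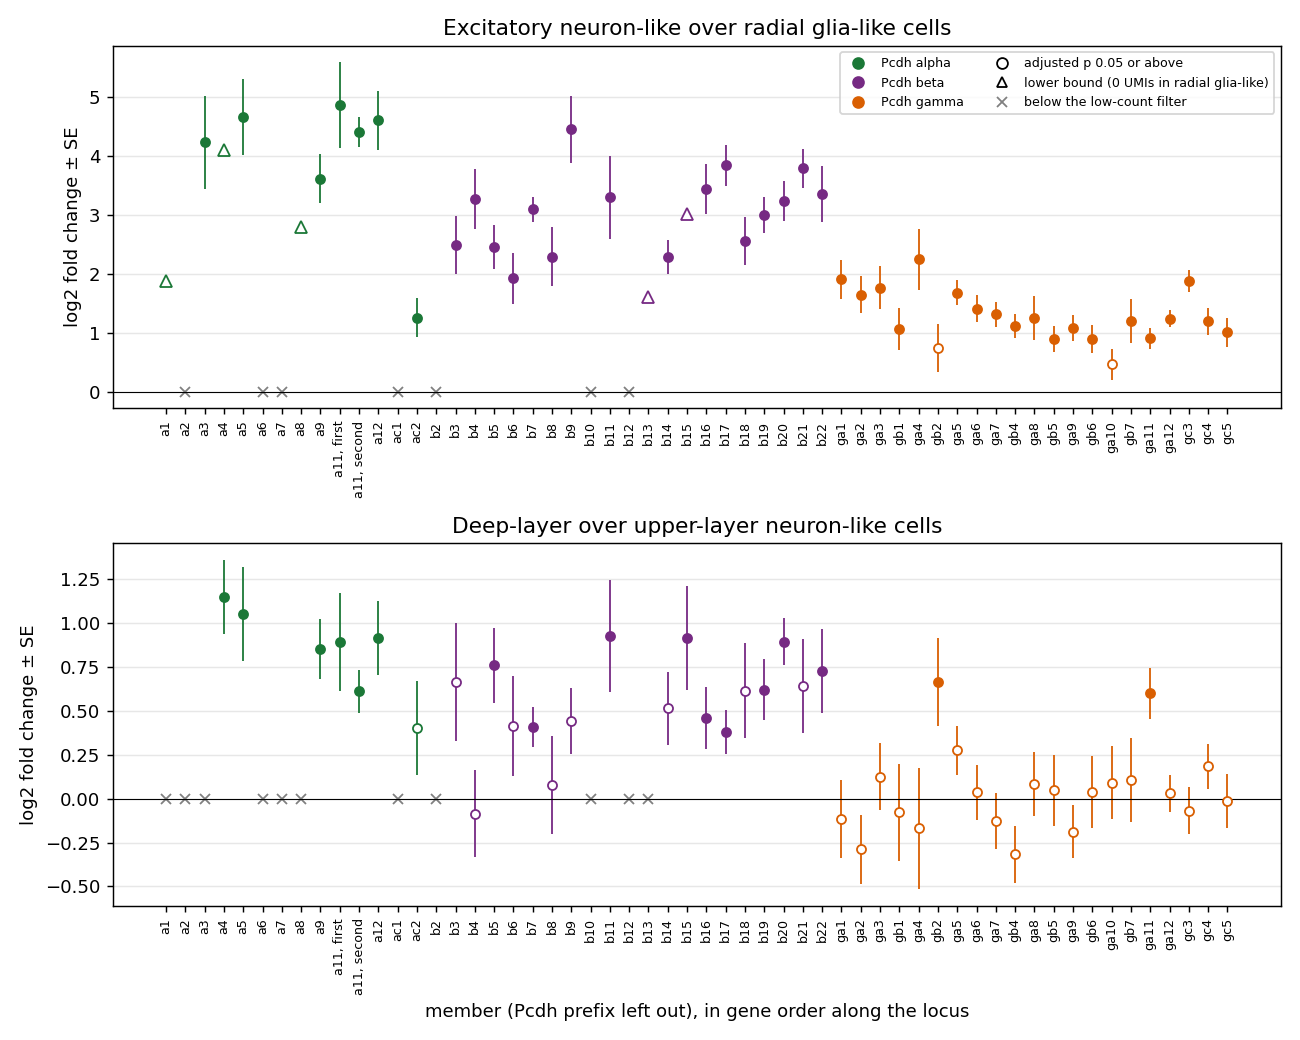
Log2 fold change with its standard error for each member in gene order, for excitatory neuron-like over radial glia-like cells (upper panel) and deep-layer over upper-layer neuron-like cells (lower panel), 4 libraries per class. Fold changes step down from alpha and beta to gamma in both panels; triangles are lower bounds for members with 0 UMIs in radial glia-like cells, and crosses are members below the low-count filter.

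Among alpha members the second Pcdha11 entry held 34.6% of the cluster's UMIs. Its annotation differs: its last unique exonic base lies 27804 bases before its 3′ end, against 165034 to 254989 for the other numbered alpha members. Whether its UMIs include transcripts of other alpha members was not tested, so its share need not be that of 1 isoform. This entry reached 6.22 and 8.86 CPM in i4F-Nes and 5.07 and 6.94 CPM in CTR excitatory neuron-like cells, compared to 0.401 and 0.615 CPM in i4F-Nes and 0.189 and 0.194 CPM in CTR radial glia-like cells. The classes did not overlap (log2 fold change 4.42 ± 0.25 SE, edgeR adjusted p = 1.38e-07). Without doublet removal the log2 fold change was 3.18 for this entry, 3.42 for Pcdha12 and 3.22 for Pcdha9, each still called. Pcdha4 had 318 UMIs in neuron-like and 0 in radial glia-like cells, at least 17.3-fold higher, and Pcdha8 had 128 and 0, at least 6.95-fold higher. Pcdha9 had 488 UMIs in neuron-like and 7 in radial glia-like cells (log2 fold change 3.62 ± 0.41, edgeR adjusted p = 2.17e-05). Pcdha12 had 412 and 3, a pooled ratio of 22.4 with an exact 95% counting interval of 7.60 to 109.

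The 2 C-type alpha isoforms were described apart. Pcdhac2, known for its part in spacing serotonergic axons, was at 0.971 and 1.75 CPM in i4F-Nes and 0.787 and 1.11 CPM in CTR neuron-like cells, and at 0.482 and 0.615 CPM in i4F-Nes and 0.568 and 0.388 CPM in CTR radial glia-like cells. Its fold change of 1.26 ± 0.33 SE on the log2 scale (edgeR adjusted p = 0.00567) was the lowest of the tested alpha members, and it was the alpha member with most UMIs in radial glia-like cells, 18 of the 49. Pcdhac1 was sparse, with 46 UMIs in neuron-like cells and 1 in radial glia-like cells, and fell below the low-count filter.

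In the beta cluster, Pcdhb7, with most UMIs of the cluster (14.6%), was at 5.13 and 7.06 CPM in i4F-Nes and 4.65 and 5.51 CPM in CTR neuron-like cells, against 0.642 and 1.08 CPM in i4F-Nes and 0.568 and 0.776 CPM in CTR radial glia-like cells (log2 fold change 3.09 ± 0.21 SE, edgeR adjusted p = 4.08e-07). Pcdhb17 (3.85 ± 0.34), Pcdhb20 (3.24 ± 0.34) and Pcdhb19 (3.0 ± 0.31) were also higher on the log2 scale. Without doublet removal the log2 fold change of Pcdhb17 was 2.41, that of Pcdhb20 3.08 and that of Pcdhb19 2.43, so the order among them is not stable. Pcdhb9 had 381 UMIs in neuron-like and 3 in radial glia-like cells, a pooled ratio of 20.7 with a counting interval of 7.03 to 101. Pcdhb15 had 149 and 0, at least 8.09-fold higher.

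Gamma members had smaller fold changes, and Pcdhga12 had most UMIs of the cluster (15.3%). This member, the last of the A-type isoforms along the array, was at 10.3 and 9.96 CPM in i4F-Nes and 10.4 and 7.995 CPM in CTR neuron-like cells, and at 5.94 and 3.996 CPM in i4F-Nes and 4.54 and 4.27 CPM in CTR radial glia-like cells (log2 fold change 1.24 ± 0.14 SE, edgeR adjusted p = 1.86e-05). Its intermediate progenitor level, 12.7 and 11.2 CPM in i4F-Nes and 10.9 and 11.2 CPM in CTR, was above that of neuron-like cells in all 4 libraries. Pcdhga6, another A-type isoform, rose by 1.41 ± 0.23 on the log2 scale.

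Summed, the C-type gamma isoforms were higher in neurons than in either progenitor class of each library. Pcdhgc5 alone was an exception in CTR replicate 2, at 2.6 CPM in neuron-like and 3.29 CPM in intermediate progenitor-like cells. Pcdhgc3, known to promote dendrite branching, was at 4.76 and 8.52 CPM in i4F-Nes and 6.40 and 8.53 CPM in CTR neuron-like cells, and at 0.883 and 3.38 CPM in i4F-Nes and 2.08 and 3.10 CPM in CTR radial glia-like cells. Its log2 fold change of 1.88 ± 0.19 SE (edgeR adjusted p = 9.54e-06) came with intermediate progenitor levels of 1.86 to 4.6 CPM, below neuron-like cells in each library. Pcdhgc4, known to be needed for neuron survival, rose by 1.19 ± 0.23 (edgeR adjusted p = 0.000777) and Pcdhgc5 by 1.01 ± 0.25 (adjusted p = 0.0038). Summed over the 3 genes, the ratio of excitatory neuron-like over intermediate progenitor-like cells was 1.42 to 1.94 for C-type, 0.816 to 1.05 for A-type and 0.667 to 0.974 for B-type gamma isoforms, and these ranges over 4 libraries did not overlap between C-type and the other two types.

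Among excitatory neurons, alpha and beta were higher in deep-layer than in upper-layer neuron-like cells, and gamma was level. Deep-layer cells, the earlier-born neurons of the cortex, had alpha at 23.0 and 36.9 CPM in i4F-Nes and 20.6 and 27.1 CPM in CTR, against 14.2 and 20.8 CPM in i4F-Nes and 11.2 and 15.9 CPM in CTR upper-layer cells. The ratio within libraries was 1.62 to 1.83 for alpha, 1.32 to 1.60 for beta and 0.948 to 1.06 for gamma. In edgeR's quasi-likelihood test 17 of 45 tested members were higher in deep-layer cells and none lower, where 29.3% of all 13766 tested genes were called higher and 60% in either direction. By cluster these were 6 of 7 tested alpha, 9 of 17 tested beta and 2 of 21 gamma members. Several of the tested members passed the low-count filter only with their deep-layer counts, so these shares are partly set by the filter. Over all members, pooled levels were higher in deep-layer cells for 14 of 14 alpha, 19 of 21 beta and 8 of 21 gamma members. Median depth was 16495 UMIs in deep-layer and 12784 UMIs in upper-layer cells, and its part in the result was not tested.

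Pcdha4 was at 2.43 and 2.65 CPM in i4F-Nes and 2.05 and 2.29 CPM in CTR deep-layer cells, against 1.27 and 1.44 CPM in i4F-Nes and 0.729 and 0.927 CPM in CTR upper-layer cells. The classes did not overlap (log2 fold change 1.15 ± 0.21 SE, edgeR adjusted p = 0.000726). Pcdhb20 was at 5.25 and 5.48 CPM in i4F-Nes and 4.47 and 6.13 CPM in CTR deep-layer cells, against 2.79 and 3.28 CPM in i4F-Nes and 2.25 and 3.44 CPM in CTR upper-layer cells (0.89 ± 0.13, adjusted p = 0.000176). Pcdha5 (1.05 ± 0.27), Pcdha12 (0.91 ± 0.21), Pcdha9 (0.85 ± 0.17), the first Pcdha11 entry (0.89 ± 0.28), Pcdhb11 (0.93 ± 0.32) and Pcdhb15 (0.91 ± 0.30) were the other called members with the largest changes on the log2 scale. Pcdhb15, at 0.425 to 0.662 CPM in upper-layer and 0.831 to 1.11 CPM in deep-layer cells, passed the low-count filter through its deep-layer counts. Other called members would not have passed it on their upper-layer counts alone. These were Pcdha5 (0.364 to 1.97 CPM in upper-layer cells), the first Pcdha11 entry (0.364 to 1.18), Pcdhb11 (0.182 to 0.883) and Pcdhgb2 (0.486 to 1.28). The gamma members called were Pcdhga11 (0.60 ± 0.15) and Pcdhgb2 (0.66 ± 0.25), singled out after their values were seen. Pcdhgc3 was at 5.33 and 6.99 CPM in i4F-Nes and 6.90 and 8.02 CPM in CTR deep-layer cells, and at 4.47 and 9.96 CPM in i4F-Nes and 6.32 and 9.45 CPM in CTR upper-layer cells, with overlapping values. The count of 17 fell to 10 with DESeq2 and to 4 without the library block. Calls were lost in edgeR for Pcdhgb2 without i4F-Nes replicate 2, CTR replicate 1 or CTR replicate 2 (adjusted p = 0.117, 0.0987 and 0.14). They were also lost for Pcdhb15 without i4F-Nes replicate 1 or 2 (0.0927 and 0.0554), Pcdhb11 without CTR replicate 1 or 2 (0.0728 and 0.123) and the first Pcdha11 entry without i4F-Nes replicate 2 or CTR replicate 1 (0.0967 and 0.0504).

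Interneuron-like cells, which reach the cortex from the ganglionic eminences, had the highest alpha level of the gated classes with over 100 cells. Alpha reached 35.1 and 42.3 CPM in i4F-Nes and 37.8 and 34.6 CPM in CTR, 1.59 to 2.63 times the excitatory level of the same library. Beta was at 46.5 and 84.7 CPM in i4F-Nes and 45.0 and 74.0 CPM in CTR, 1.35 to 1.85 times the excitatory level, and the gamma ratio of 0.953 to 1.29 spanned 1. Interneuron-like cells were few (77 to 343 per library) and shallow, with a median of 7113 UMIs, so single members rest on few UMIs.

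In edgeR's quasi-likelihood test 5 members were higher in interneuron-like than in excitatory neuron-like cells, where 17.6% of all 14379 tested genes were called higher, and 1 was lower, where 22.3% were called lower and 40% in either direction. A total of 53 members were tested. Pcdha4 was at 5.16 and 6.77 CPM in i4F-Nes and 5.96 and 7.48 CPM in CTR interneuron-like cells, against 1.67 and 1.98 CPM in i4F-Nes and 1.13 and 1.30 CPM in CTR excitatory neuron-like cells (log2 fold change 2.02 ± 0.40 SE, adjusted p = 0.000232). All 4 interneuron values lay above all 4 excitatory values. Pcdhb7 was at 9.29 and 25.4 CPM in i4F-Nes and 4.64 and 15.3 CPM in CTR interneuron-like cells, and its lowest value lay just below the excitatory range of 4.65 to 7.06 CPM (1.02 ± 0.28, adjusted p = 0.00559).

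Pcdha2 (16 UMIs in interneuron-like cells, log2 fold change 2.29 ± 0.60), Pcdhb10 (12 UMIs, 2.79 ± 0.65) and Pcdhb4 (18 UMIs, 1.45 ± 0.51) were the other members that were higher. Pcdhb10, at 0.156 to 0.349 CPM in excitatory neuron-like cells, passed the low-count filter only through its interneuron-like counts. Pcdha2, at 0.274 to 0.912 CPM in excitatory neuron-like cells, would not have passed it on those counts alone. In interneuron-like cells of i4F-Nes replicate 1 Pcdha2 had 0 UMIs. Pcdhga3 was the lower one, with 2 UMIs in interneuron-like and 394 in excitatory neuron-like cells, a pooled ratio of 0.193 with a counting interval of 0.0232 to 0.700. Pcdhgc4 was at 9.29 and 5.08 CPM in i4F-Nes and 7.95 and 7.87 CPM in CTR interneuron-like cells, against 6.28 and 4.14 CPM in i4F-Nes and 5.05 and 3.84 CPM in CTR excitatory neuron-like cells, higher in each of 4 libraries without passing the edgeR test (adjusted p = 0.125). Without CTR replicate 2, which held 343 of the 713 interneuron-like cells, 3 members were called, and Pcdhga3 (edgeR adjusted p = 0.127), Pcdhb4 (0.182) and Pcdhb7 (0.109) lost their calls. Pcdhb4 also lost its call without CTR replicate 1 (edgeR adjusted p = 0.115), and Pcdhga3 with DESeq2 (adjusted p = 0.0624).

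Between i4F-Nes and CTR no member was called over all kept cells or in any class fitted. The classes fitted were radial glia-like, intermediate progenitor-like, excitatory neuron-like and interneuron-like cells. Upper-layer and deep-layer cells were not fitted apart between the groups. Over all kept cells alpha summed to 11.7 and 17.5 CPM in i4F-Nes and 10.47 and 16.2 CPM in CTR, beta to 25.3 and 32.8 CPM in i4F-Nes and 25.2 and 36.7 CPM in CTR, and gamma to 52.6 and 68.6 CPM in i4F-Nes and 55.1 and 68.3 CPM in CTR. In both groups the shallower replicate 2 had the higher level of each cluster, and the groups overlapped. edgeR's quasi-likelihood test over all kept cells called 0 of 56 members, where 2.18% of all 18556 genes were called, with a lowest adjusted p of 0.715 and 0 members at an unadjusted p under 0.05. DESeq2 also called 0. Without the cells of the reprogrammed gates 0 of all genes were called in place of 405.

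In excitatory neuron-like cells the edgeR test called 0 of 56 members and 0% of 16099 genes, with 0 members at an unadjusted p under 0.05. With the replicate number as a block, 612 genes were called here, but still 0 members. Log2 fold changes of i4F-Nes over CTR ran from -0.27 to 0.89, and 12 of 14 alpha, 13 of 21 beta and 13 of 21 gamma members were positive. The medians were 0.43 for alpha, 0.06 for beta and 0.07 for gamma, beside 0.00 over all tested genes, while the median standard error of a member was 0.364. Alpha members share exons and the same libraries, so their directions are not independent. The alpha sums overlapped, at 17.5 and 26.6 CPM in i4F-Nes and 14.4 and 19.3 CPM in CTR. Pcdha4 in these cells was at 1.67 and 1.98 CPM in i4F-Nes and 1.13 and 1.30 CPM in CTR, and Pcdhgc3 at 4.76 and 8.52 CPM in i4F-Nes and 6.40 and 8.53 CPM in CTR, neither of them called.

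In radial glia-like cells 14 gamma members were tested and 0 called (0.015% of all 13309 genes), with 0 at an unadjusted p under 0.05 by edgeR. Alpha summed to 6.05 and 6.18 CPM in i4F-Nes and 3.86 and 3.39 CPM in CTR intermediate progenitor-like cells, and beta to 20.9 and 17.4 CPM in i4F-Nes and 17.4 and 20.5 CPM in CTR. The alpha values did not overlap, but with 2 libraries per group this is easily met, and its share over all genes was not counted. In this class 32 members were tested and 0 called (0.0505% of all 13852 genes), with 1 at an unadjusted p under 0.05 by edgeR. That member, Pcdha9, was at 0.896 and 1.45 CPM in i4F-Nes and 0.372 and 0.199 CPM in CTR. In interneuron-like cells 3 members were tested and 0 called (0% of all 9793 genes), with 0 at an unadjusted p under 0.05 by edgeR. DESeq2 called 0 members in each of these classes. The difference between genotypes of the neuron-to-glia change, tested as an interaction with edgeR, was called for 0 of 51 members and 0% of 16260 genes, with 2 members at an unadjusted p under 0.05.

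**Figure D3:**
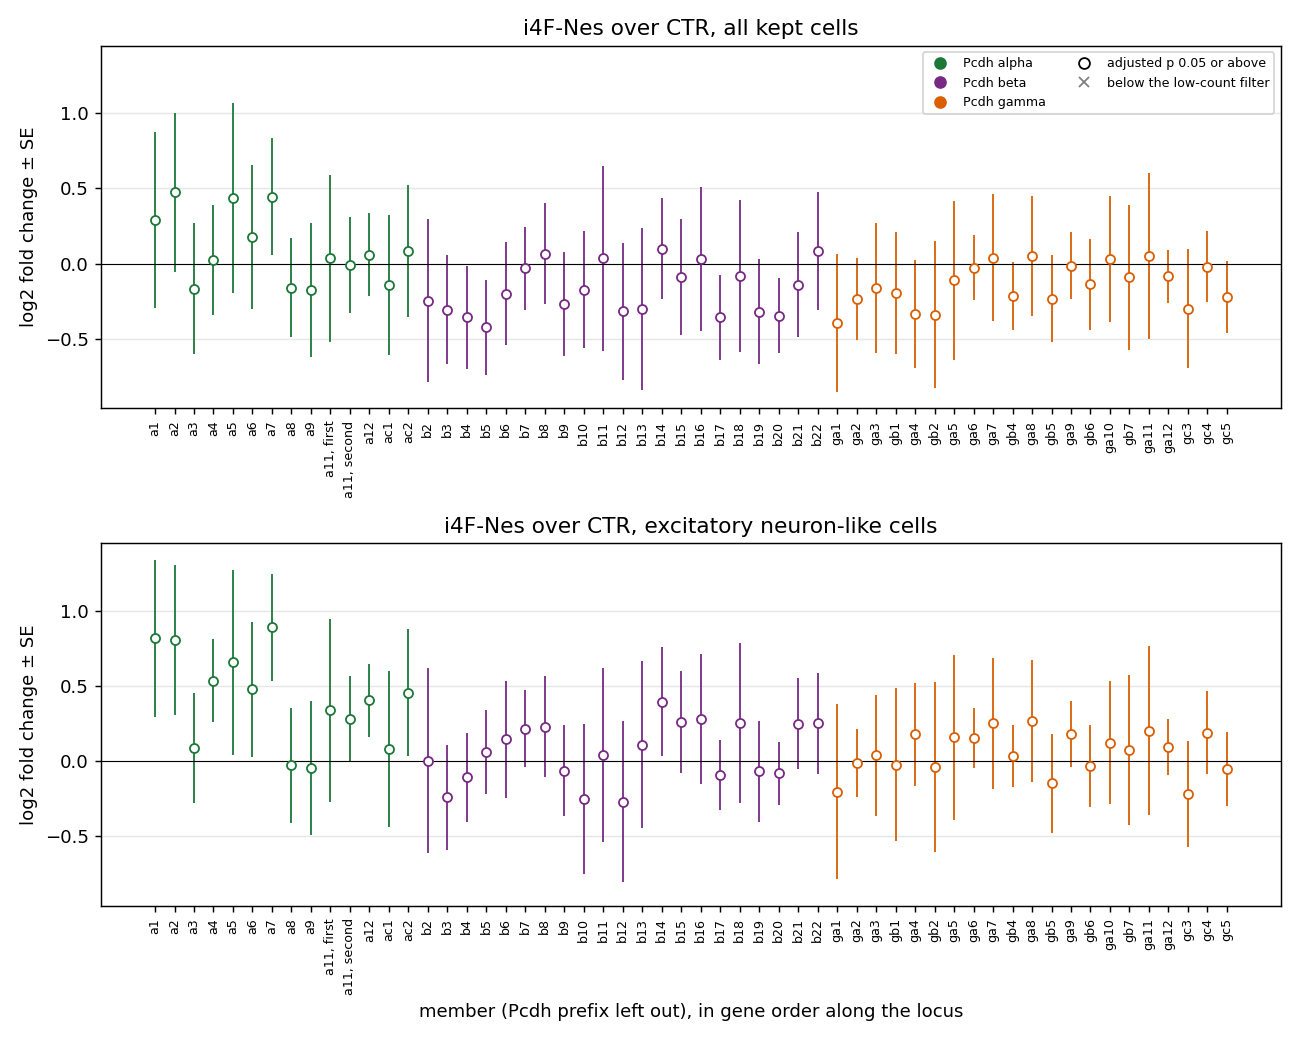
Log2 fold change of i4F-Nes over CTR with its standard error for each member in gene order, in all kept cells (upper panel) and in excitatory neuron-like cells (lower panel), 2 libraries per group. All symbols are open, since 0 members passed an adjusted p of 0.05 in either panel. In the lower panel 12 of 14 alpha members, which share exons, lie above 0, while their summed levels overlapped between groups.

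The reprogrammed cells were set against other cells of the i4F-Nes libraries, since the gates found 0 and 2 such cells in CTR. Krt8/Ebf-gated cells had alpha at 6.97 and 9.96 CPM, against 17.5 and 26.6 CPM in excitatory neuron-like cells of the same libraries, a ratio of 0.397 and 0.374. Beta was at 27.9 and 31.4 CPM against 34.5 and 45.8 CPM, and gamma at 45.4 and 53.2 CPM against 60.7 and 80.4 CPM, in each library lower in the gated cells. Over members, pooled levels were lower in the gated cells for 14 of 14 alpha, 16 of 21 beta and 18 of 21 gamma members. These cells carried general neuron markers (5 genes, 8291 CPM against 5474 CPM in excitatory neuron-like cells) but fewer of the 7 excitatory markers (751.0 against 3618 CPM) and a higher sum of the radial glia markers (1242 against 205.6 CPM). The radial glia markers did not move together: Fabp7 was at 33.4 and 11.2 CPM in gated cells and 75.0 and 44.4 CPM in neuron-like cells, and Sox2 at 10.8 and 17.1 CPM in gated cells and 1.61 and 1.38 CPM in neuron-like cells. The part of these markers in the result was not tested.

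In edgeR's quasi-likelihood test 4 of 37 tested members were lower in Krt8/Ebf-gated than in excitatory neuron-like cells and none higher, where 25.4% of all 15706 genes were called lower, 25% higher and 50.4% in either direction. The second Pcdha11 entry was at 2.75 and 4.67 CPM in gated cells and 6.22 and 8.86 CPM in neuron-like cells (log2 fold change -1.19 ± 0.31 SE, adjusted p = 0.0128). Pcdhgc3 was at 2.53 and 4.04 CPM in gated and 4.76 and 8.52 CPM in neuron-like cells (-1.15 ± 0.35 on the log2 scale, adjusted p = 0.0226), and Pcdhgc4 at 3.17 and 0.933 CPM in gated and 6.28 and 4.14 CPM in neuron-like cells (-1.40 ± 0.45, adjusted p = 0.0303). Pcdhga5 was the other (-1.06 ± 0.34, adjusted p = 0.0293). Without doublet removal Pcdhgc3 (edgeR adjusted p = 0.0615) and Pcdhga5 (0.244) lost their calls, and without the library block all 4 did. Pcdhga12 was at 9.50 and 9.64 CPM in gated and 10.3 and 9.96 CPM in neuron-like cells, and Pcdhb20 at 4.86 and 4.98 CPM in gated and 3.82 and 4.14 CPM in neuron-like cells. Set beside radial glia-like cells library by library, the gated cells had 5.11 and 5.40 times the alpha level, 5.26 and 5.38 times the beta level and 1.53 and 1.23 times the gamma level.

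**Figure D4:**
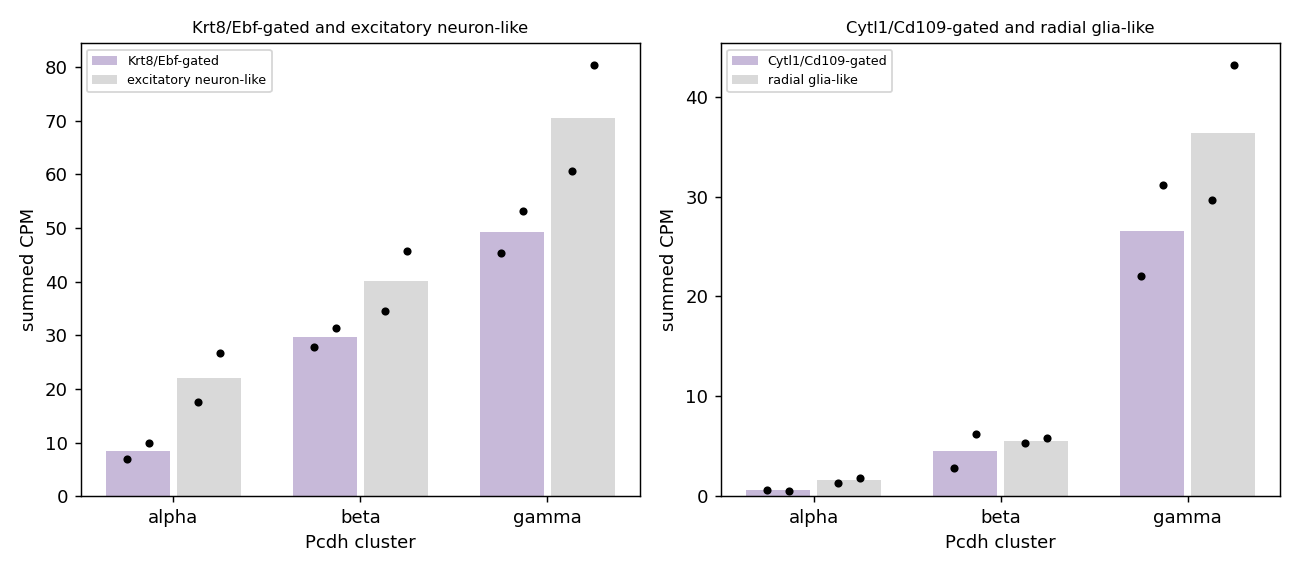
Summed CPM of each cluster in the 2 i4F-Nes libraries (points, 1 per library, with bars at their mean) for Krt8/Ebf-gated and excitatory neuron-like cells (left) and Cytl1/Cd109-gated and radial glia-like cells (right). Alpha is lower in the gated cells in both libraries of both panels, at 6.97 and 9.96 CPM against 17.5 and 26.6 CPM on the left.

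Cytl1/Cd109-gated cells had few alpha UMIs and a gamma level below that of radial glia-like cells. Alpha was at 0.644 and 0.515 CPM (14 UMIs in all) in gated cells, compared to 1.37 and 1.84 CPM in i4F-Nes radial glia-like cells. Both rest on few UMIs. Beta was at 2.79 and 6.18 CPM in gated and 5.30 and 5.84 CPM in radial glia-like cells, which overlapped, and gamma at 22.0 and 31.1 CPM in gated and 29.6 and 43.2 CPM in radial glia-like cells, lower within each library at 0.743 and 0.721 times. The gated cells were deep, with a median of 31987 UMIs. Their radial glia markers summed to 2930 CPM, against 12630 CPM in radial glia-like cells.

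A single member was called between these classes by edgeR's quasi-likelihood test, of 37 tested, where 18.8% of all 15706 genes were called lower. It passed the low-count filter through other classes of the same fit, with 410 and 340 UMIs in excitatory neuron-like cells. The second Pcdha11 entry had 1 UMI in gated cells and 9 UMIs in radial glia-like cells of the i4F-Nes libraries, at 0.0715 and 0 CPM in gated and 0.401 and 0.615 CPM in radial glia-like cells (adjusted p = 0.0254), a pooled ratio of 0.0889 with a counting interval of 0.00203 to 0.642. DESeq2 called 0. Among the C-type isoforms Pcdhgc3 was at 1.22 and 2.68 CPM in gated and 0.883 and 3.38 CPM in radial glia-like cells, and Pcdhgc4 at 2.57 and 3.09 CPM in gated and 2.41 and 2.92 CPM in radial glia-like cells. Pcdhac1 had 0 UMIs in either reprogrammed class.

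The UMIs of 1 cell often came from the same beta gene. In excitatory neuron-like cells, the beta UMIs of a cell form 5324 pairs over the 4 libraries, and 40.6% and 43.7% of the pairs in i4F-Nes and 42.6% and 39.7% in CTR were of the same gene. Drawing both UMIs from the pooled gene frequencies would give 7.92% and 7.87% in i4F-Nes and 8.26% and 7.77% in CTR, so the observed share was 5.11 to 5.55 times that, with no overlap. The ratio was 1.37 to 2.03 for alpha (1245 pairs), 1.57 to 2.83 for gamma (10939 pairs) and 1.08 to 1.10 for the 19 chromatin regulators listed further on. Detection per cell was sparse, with 7998 beta UMIs in 14111 excitatory neuron-like cells: 65.7% had no beta UMI, 25.6% UMIs of 1 beta gene and 8.72% of 2 or more, which does not give the number of genes a cell expresses. In 278 of these cells 1 beta gene had 3 or more UMIs.

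**Figure D5:**
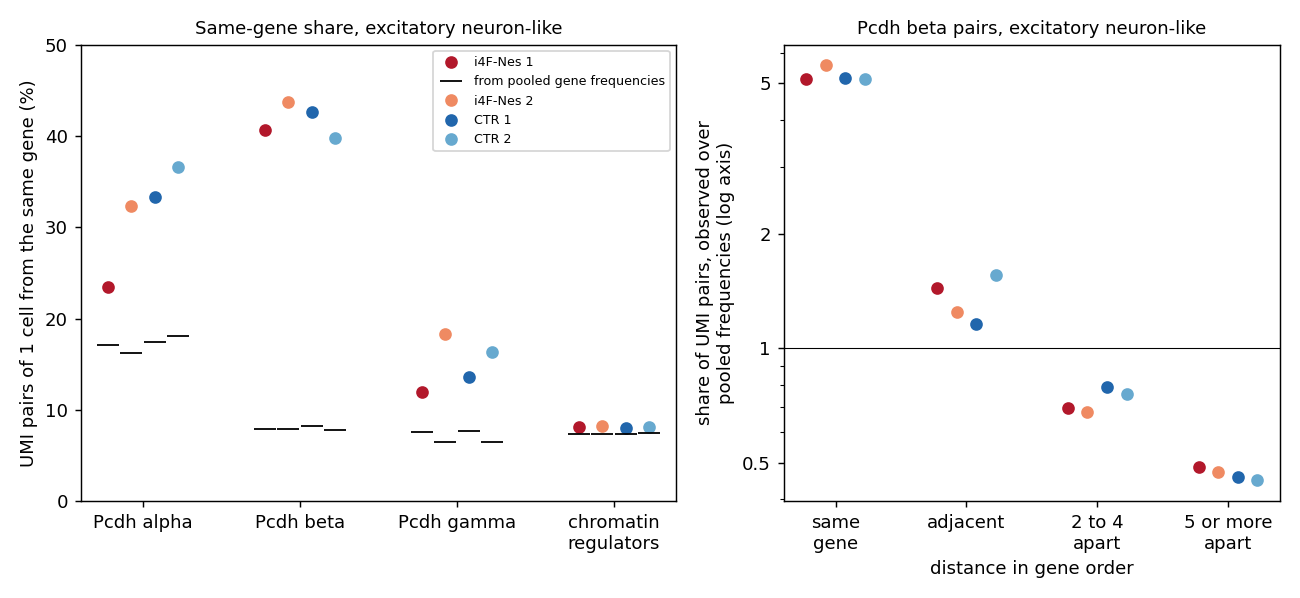
Left, share of UMI pairs within excitatory neuron-like cells that come from the same gene (points, 1 per library) beside the share given by pooled gene frequencies (dashes), for the 3 clusters and the chromatin regulators. Right, the observed share of beta pairs over that from pooled frequencies, by distance in gene order (log axis); it falls from above 5 for the same gene to below 0.5 at 5 or more genes apart in all 4 libraries.

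Among beta pairs from different genes, neighbours were met more often than distant genes. Adjacent genes made up 14.02% and 12.2% of pairs in i4F-Nes and 11.5% and 15.2% in CTR excitatory neuron-like cells, 1.16 to 1.56 times their share from pooled frequencies. Genes 2 to 4 places apart reached 0.678 to 0.793 times and genes 5 or more places apart 0.449 to 0.487 times their share. Intermediate progenitor-like cells had the like order, with 1.51 to 2.17 for adjacent genes and 0.280 to 0.448 for genes 5 or more places apart, over 507 pairs. Gamma pairs of different genes in neuron-like cells lay between 0.862 and 1.00 at every distance. Beta genes are paralogs of similar sequence, so the split of UMIs between neighbours is uncertain.

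The pairs were also counted gene by gene. For each gene, pairs of its UMIs within a cell were divided by the number given by spreading its UMIs over the cells of the class in proportion to depth. The median over beta genes was 8.54 to 11.4 across libraries in excitatory neuron-like cells, 3.40 to 4.18 over gamma and 2.94 to 6.71 over alpha genes. Among 5127 to 5860 other genes in the same range of UMIs the median was 2.86 to 3.06, and single genes reached a 95th percentile of 33.0 to 45.8. In upper-layer cells the same-gene ratio of the beta cluster was 5.48 to 6.84, and in deep-layer cells 4.02 to 5.06.

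Genes known to act on protocadherin promoter choice and chromatin, and proteins known to bind protocadherins, were counted in the same fits. Of the 19 listed regulators 3 were higher and 11 lower by edgeR's quasi-likelihood test, with a median log2 fold change of -0.44, and of 17 listed partner proteins 16 were tested, 9 higher and 4 lower, with a median of 0.63. Over all tested genes 41.5% were called higher and 37.3% lower in this contrast, with a median of 0.07. Rest, a repressor of neuronal genes, was at 6.93 and 6.18 CPM in i4F-Nes and 6.04 and 6.46 CPM in CTR neuron-like cells, against 57.2 and 41.3 CPM in i4F-Nes and 55.4 and 46.2 CPM in CTR radial glia-like cells (-2.76 ± 0.10 SE, edgeR adjusted p = 4.39e-09). Dnmt3a, a DNA methyltransferase, fell by 2.37 ± 0.16, and the cohesin subunits Rad21, Stag2 and Stag1 fell by 1.53 ± 0.07, 1.03 ± 0.07 and 0.71 ± 0.07 on the log2 scale. Mau2, of the cohesin loader, rose by 0.84 ± 0.06. Among the partners, the synaptic adhesion protein Nlgn1 rose by 2.03 ± 0.09 and the kinase Ptk2 by 1.82 ± 0.07. The WAVE complex genes Wasf1 and Cyfip2, which bind protocadherin tails, rose by 1.55 ± 0.06 and 1.35 ± 0.07. The 4 lower partners were Marcks (-0.91 ± 0.08), Pdcd10 (-0.41 ± 0.05), Rac1 (-0.34 ± 0.06) and Cyfip1 (-0.16 ± 0.06), the last also a WAVE complex gene.

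Counts in the other contrasts were as follows. Between interneuron-like and excitatory neuron-like cells 5 of 19 regulators were higher and 2 lower (17.6% and 22.3% of all tested genes), with Dnmt3a at 68.1 and 35.6 CPM in i4F-Nes and 60.9 and 53.9 CPM in CTR interneuron-like cells, against 11.7 to 17.2 CPM in excitatory neuron-like cells. Deep-layer over upper-layer cells had 3 higher and 9 lower (29.3% and 30.7% of all tested genes), with Rest higher (1.16 ± 0.15 SE) and Dnmt3a lower (-1.15 ± 0.08). Krt8/Ebf-gated over excitatory neuron-like cells had 2 higher and 8 lower (25% and 25.4% of all tested genes), with Rest at 0.634 and 1.87 CPM against 6.93 and 6.18 CPM and Dnmt3a at 39.7 and 36.4 CPM against 13.5 and 17.2 CPM. Cytl1/Cd109-gated over radial glia-like cells had 1 higher, Dnmt1 (0.51 ± 0.14), and 1 lower, Pds5a (-0.36 ± 0.09), where 18.7% and 18.8% of all tested genes were called. Beside the same shares of all genes, the partners had 4 higher and 5 lower of 15 tested for interneuron-like cells. Of 16 tested, 8 were higher and 5 lower for deep-layer cells, 2 and 8 for Krt8/Ebf-gated cells and 3 and 5 for Cytl1/Cd109-gated cells. In the comparisons of i4F-Nes with CTR, 0 regulators and 0 partners were called by edgeR, over all kept cells or in any class fitted, with 0 or 1 of each list at an unadjusted p under 0.05.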

How the data were processed

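Single-cell RNA was measured in 4 libraries of E15.5 mouse neocortex. The deposited matrices hold raw UMI counts of each gene in each barcode. The authors made them with cellranger 7.0.1, per the file headers, and the submitters' processing notes name mm10. Whether introns were counted or doublets removed is not given in the sources used here. Cells had at least 1000 UMIs, 500 genes and at most 10% mitochondrial UMIs (28672 barcodes), and 2031 doublets were removed with Scrublet in scanpy 1.11.5 at 0.8% per 1000 barcodes.

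Cells were gated on the number of detected markers: at least 8 of 12 and at most 3 intermediate progenitor markers for radial glia-like, 4 of 7 with Eomes for intermediate progenitor-like, 4 of 7 with at most 4 radial glia markers and no Eomes for excitatory neuron-like, 5 of 12 for interneuron-like, 5 of 9 with Trp73 for Cajal-Retzius-like, 5 of 8 for Cytl1/Cd109-gated, 5 of 9 with Krt8 for Krt8/Ebf-gated and 4 for vascular or immune cells. Excitatory neuron-like cells were upper-layer with at least 6 of 8 upper and at most 4 deep markers, and deep-layer with at least 6 of 8 deep and at most 5 upper markers. A total of 884 cells met more than 1 gate and took the one later in a fixed order, except 124 with both reprogrammed gates, which were left out. At the limit of their gate lay 4115 excitatory neuron-like, 851 intermediate progenitor-like, 128 radial glia-like and 99 interneuron-like cells. Classes were built here without an annotation by the authors.

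Counts were summed per library and class and tested with edgeR 4.0.16 (quasi-likelihood F-test, TMM, filterByExpr, robust; R 4.3.3), with Benjamini-Hochberg adjustment over all tested genes at 0.05. Contrasts between classes had the library as a block, and the reprogrammed contrasts used the 2 i4F-Nes libraries. Those contrasts fitted both reprogrammed classes, radial glia-like and excitatory neuron-like cells together. Their low-count filter, dispersions and p-values therefore rest on all these classes, not only on the pair compared. The scripts were tested on simulated data. Levels are CPM, UMIs per 1e6 UMIs of the class, not scaled by gene length. Intervals and bounds (3 counts) cover counting error only. Alternatives were DESeq2 1.42.0, its size factors, no low-count filter, no doublet removal, stricter gates, no library block or a replicate block, and leaving out libraries.

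The members and lists were chosen with earlier results of these data known. Named are the C-type isoforms, the 4 members of each cluster with most UMIs, and in each comparison up to 8 called members by size of change. From the regulator and partner lists up to 6 are named by size of change, plus the partners called lower in neuron-like than in radial glia-like cells. No sequence is printed.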

Additional observations from a re-analysis of the deposited data

How the results depend on the processing

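Counts of called members changed by over 1.5 times in these cases. For interneuron-like over excitatory neuron-like cells, 3 to 7 were called with 1 library left out, the 3 without CTR replicate 2, against 6. For deep-layer over upper-layer cells, 10 were called with DESeq2 and 4 without the library block, against 17, and 12 to 15 with 1 library left out. For Cytl1/Cd109-gated over radial glia-like cells, 0 were called with DESeq2, 3 with no low-count filter and 2 with the stricter gate, against 1. For Krt8/Ebf-gated over excitatory neuron-like cells, 13 were called with no low-count filter and 0 without the library block, against 4. The cause was not tested, beyond the unfiltered fits having more genes to test. For excitatory neuron-like over radial glia-like cells 42 to 54 were called under all alternatives run. Between i4F-Nes and CTR 0 members were called in each class fitted under all of them, including the replicate block. Replicate numbers were shared between groups, and deviations of same-numbered libraries correlated at 0.177 to 0.62 over genes, but with 2 pairs this does not show that the libraries were paired, and the block changed no count of members. It moved the count over all genes to 1284 from 405 in all kept cells, to 273 from 2 in radial glia-like, to 426 from 7 in intermediate progenitor-like, to 612 from 0 in excitatory neuron-like and to 69 from 0 in interneuron-like cells. DESeq2 gave 1160, 77, 48, 34 and 10 in these classes. Of 397 values of single genes under alternatives, 361 kept their direction and side of the threshold, 35 lost the call, 1 gained it and 0 reversed. Leaving out a library could not be fitted for the reprogrammed contrasts, which have no residual degrees of freedom without it. Depth limits single alpha members in radial glia-like and single members in interneuron-like cells.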

Other observations

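Cajal-Retzius-like cells, an early neuron type of the cortical surface gated on Reln, Trp73 and other markers, were 22 and 9 cells in i4F-Nes and 22 and 20 in CTR. Alpha was at 20.7 and 26.8 CPM in i4F-Nes and 13.4 and 42.1 CPM in CTR, from 51 UMIs in all, and gamma at 50.7 and 53.6 CPM in i4F-Nes and 28.1 and 79.0 CPM in CTR, from 105 UMIs. The second Pcdha11 entry had 23 of the 51 alpha UMIs. Among non-neural cells, 51 endothelial cells had 0 alpha UMIs, 24 beta UMIs and 67 gamma UMIs, and 138 microglia had 1 alpha, 1 beta and 19 gamma UMIs, 11 of the 19 in i4F-Nes replicate 1.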
